A study of Mus musculus with 36 samples.

Results

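Core clock genes were followed in the gastrocnemius of mice that ran set distances on a high-fat diet. The set held 9 genes, chosen by name: Bmal1 (listed under its older symbol Arntl), Clock, Npas2, Per1, Per2, Per3, Cry1, Cry2 and Nfil3, of 46893 features in the count table. All 9 were in the table, and 8 of them averaged at least 25 reads per library and could be tested, as could 12053 of all features. Npas2 had a mean count of 4.33 and was not tested. In edgeR no member passed an adjusted p of 0.05 in any of 11 comparisons between pairs of groups. In edgeR none passed in a test of distance among the runners or in a test over all 6 groups either. DESeq2 called Nfil3 between HFD-50% and HFD-U, and Per1 and Nfil3 over the 6 groups. The share of all genes that DESeq2 called there is not given here. The spread between mice of 1 group was large. Over the 36 mice, those with more Bmal1 than their group mean tended to have more Nfil3 and less Per2, Per3 and Dbp. In the 10 sedentary libraries with a high share of rRNA-linked counts, examined alone, no pair of Bmal1 with another member passed. The r of Bmal1 with Nfil3, Per2 and Per3 kept its sign there (0.37, -0.42 and -0.48).

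RNA from the gastrocnemius of 36 wild type (WT) C57BL/6 males, taken from 1 of the 2 muscles of each mouse, was sequenced by mouse, and 6 mice made up each of 6 groups. Mice were 3 to 4 weeks old when housed, were assigned to a group 1 week later and stayed on their diet for 12 weeks. NFD-C mice were sedentary and ate the AIN93G diet, with 16% of its energy from fat. HFD-C mice were sedentary and ate the high-fat diet (HFD), with 45% of its energy from fat. The 4 running groups ate the HFD and had a wheel in the cage: HFD-U ran without restriction (8.3 km/day), and HFD-25%, HFD-50% and HFD-75% ran 2.1, 4.2 and 6.3 km/day, which is 25, 50 and 75% of that distance. For the restricted runners the brakes opened at Zeitgeber time 12, when the lights went off, and closed when the daily distance was reached, so the end of the running bout could differ between groups. The Zeitgeber time at which muscle was collected is not given in the sources used here. A difference in the level of a clock gene and a difference in clock phase at collection therefore cannot be told apart in any comparison below, and in whole muscle neither can fewer cells of a type and less RNA per cell.

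The mammalian clock is a loop of transcription and repression. BMAL1 pairs with CLOCK, or with its relative NPAS2, on E-box motifs and drives the Per and Cry genes, whose proteins return to the nucleus and block that pair. The nuclear receptors of the REV-ERB (Nr1d1, Nr1d2) and ROR families compete for the RORE motif in the Bmal1 promoter, while DBP activates and NFIL3 represses genes that carry a D-box, so that Bmal1 mRNA and Per, Dbp and Nr1d1 mRNA peak at nearly opposite times of day. Skeletal muscle holds such a clock, and feeding and activity can shift it.

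The promoters in which these motifs were found are printed to show the letters of that loop's motifs near the members' start sites. Windows of 250 bases before to 50 bases after a transcription start, from RefSeq (GRCm38.p6), were found for 8 of 9 members, 12 windows in all, and there was no entry for Per2. The motifs searched on both strands were the E-box CACGTG, the D-box TTATGTAA and the RORE ANTAGGTNA, and they are in capitals. Over 32851 windows of the same length, 7.15% held the E-box, 0.938% the D-box and 2.04% the RORE. The Bmal1 window lies at chr7:113207261-113207560 (+ strand), the Per1 window at chr11:69098699-69098998 (+ strand), the Cry1 window at chr10:85185005-85185304 (- strand), the Per3 window at chr4:151044616-151044915 (- strand) and the Nfil3 window at chr13:52980990-52981289 (- strand).
Bmal1: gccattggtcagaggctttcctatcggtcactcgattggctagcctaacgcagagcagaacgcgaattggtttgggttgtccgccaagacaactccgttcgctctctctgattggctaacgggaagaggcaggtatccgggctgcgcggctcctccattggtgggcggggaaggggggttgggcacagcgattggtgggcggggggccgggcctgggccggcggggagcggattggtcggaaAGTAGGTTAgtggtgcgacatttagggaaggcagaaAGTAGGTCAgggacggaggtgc
Per1: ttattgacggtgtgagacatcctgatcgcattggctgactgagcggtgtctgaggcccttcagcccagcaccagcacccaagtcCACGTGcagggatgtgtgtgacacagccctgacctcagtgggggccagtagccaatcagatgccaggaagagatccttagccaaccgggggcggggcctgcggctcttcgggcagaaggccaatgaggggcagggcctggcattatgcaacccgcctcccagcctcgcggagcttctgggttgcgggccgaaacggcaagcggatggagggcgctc
Cry1: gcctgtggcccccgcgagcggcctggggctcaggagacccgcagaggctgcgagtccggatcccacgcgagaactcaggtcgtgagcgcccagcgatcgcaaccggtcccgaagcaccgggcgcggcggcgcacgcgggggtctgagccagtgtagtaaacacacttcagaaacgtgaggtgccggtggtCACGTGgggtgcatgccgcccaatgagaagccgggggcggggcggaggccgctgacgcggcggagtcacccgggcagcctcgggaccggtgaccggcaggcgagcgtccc
Per3: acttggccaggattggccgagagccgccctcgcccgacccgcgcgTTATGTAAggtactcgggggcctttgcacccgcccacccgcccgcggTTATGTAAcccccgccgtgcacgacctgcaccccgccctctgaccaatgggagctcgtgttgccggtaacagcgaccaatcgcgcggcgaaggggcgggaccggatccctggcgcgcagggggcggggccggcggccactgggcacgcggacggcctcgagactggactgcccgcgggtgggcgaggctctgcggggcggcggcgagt
Nfil3: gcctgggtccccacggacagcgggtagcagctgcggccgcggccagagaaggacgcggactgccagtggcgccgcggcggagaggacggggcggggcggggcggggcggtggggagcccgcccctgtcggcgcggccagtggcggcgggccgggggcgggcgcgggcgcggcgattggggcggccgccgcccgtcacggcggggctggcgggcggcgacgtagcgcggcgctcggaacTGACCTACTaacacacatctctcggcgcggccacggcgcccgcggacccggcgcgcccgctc
The Bmal1 window held 2 ROREs, which begin 8 bases before and 28 bases after the start, and no E-box or D-box. The Per1 window held 1 E-box, 166 bases before the start, and the Cry1 window 1 E-box, 60 bases before it. The Per3 window held 2 D-boxes, 205 and 158 bases before the start. The Nfil3 window held 1 RORE, on the opposite strand, 12 bases before the start. A second Bmal1 window, which overlaps the one printed, held the first of its ROREs. A second Per1 window and the windows of Clock, Npas2 and Cry2 held none of these letters, and no 2 motifs overlapped. A match is a run of letters and was not tested for binding.

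Libraries held from 13060090 to 27981702 reads on genes. Summed levels of 6 muscle fibre markers lay between 73214 and 155368 CPM (counts scaled to a library's TMM-adjusted size), so the muscle label held in every library. Slow fibre markers ranged from 33.3 to 3523 CPM in sum, adipocyte markers from 114 to 437 CPM, endothelial markers from 114 to 438 CPM, red blood cell markers from 119 to 411 CPM, Schwann cell markers from 31.7 to 277 CPM and immune markers from 2.64 to 7.56 CPM. Of the adipocyte list, Adipoq, Plin1, Cidec, Lep and Retn each stood at 0 in at least 1 library. Fabp4, the remaining gene of that list, had 107 to 425 CPM and made up most of the sum. The libraries fell into 2 sets by the share of counts on 6 rRNA-linked features. This share was 2.01 to 3.80% in all NFD-C libraries and in HFD-C mice 1 to 4, and 0.404 to 1.02% in HFD-C mice 5 and 6 and every runner. Each comparison of runners with HFD-C therefore mixes the 2 sets, and within-set counts, with values for the members concerned, follow the counts of members below.

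Levels corrected for gene length (FPKM) set the order of the members, as means over the 36 mice with the lowest and the highest mouse. Per1 led with 11.9 FPKM (6.67 to 20.6), followed by Cry2 with 11.6 (7.71 to 22.7), Nfil3 with 9.43 (3.76 to 23.2), Per3 with 5.85 (1.94 to 13.4) and Per2 with 5.48 (2.98 to 9.43). Cry1 had 3.48 FPKM (2.15 to 4.50), Clock 2.38 (1.57 to 4.06), Bmal1 0.615 (0.251 to 1.91) and Npas2 0.0595 (0 to 0.191). The ranges of all neighbours in this order overlapped except those of Bmal1 and Npas2. Bmal1 was given a length of 19362 bases, the longest of the 9, which lowers its FPKM relative to its count. From here on, levels are CPM after TMM scaling and serve to compare mice, not genes. From the lowest to the highest mouse the level of Bmal1 differed 7.59-fold, of Per3 6.91-fold and of Nfil3 6.18-fold, against 3.17-fold for Per2, 3.08-fold for Per1, 2.95-fold for Cry2, 2.58-fold for Clock and 2.10-fold for Cry1.

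**Figure D1:**
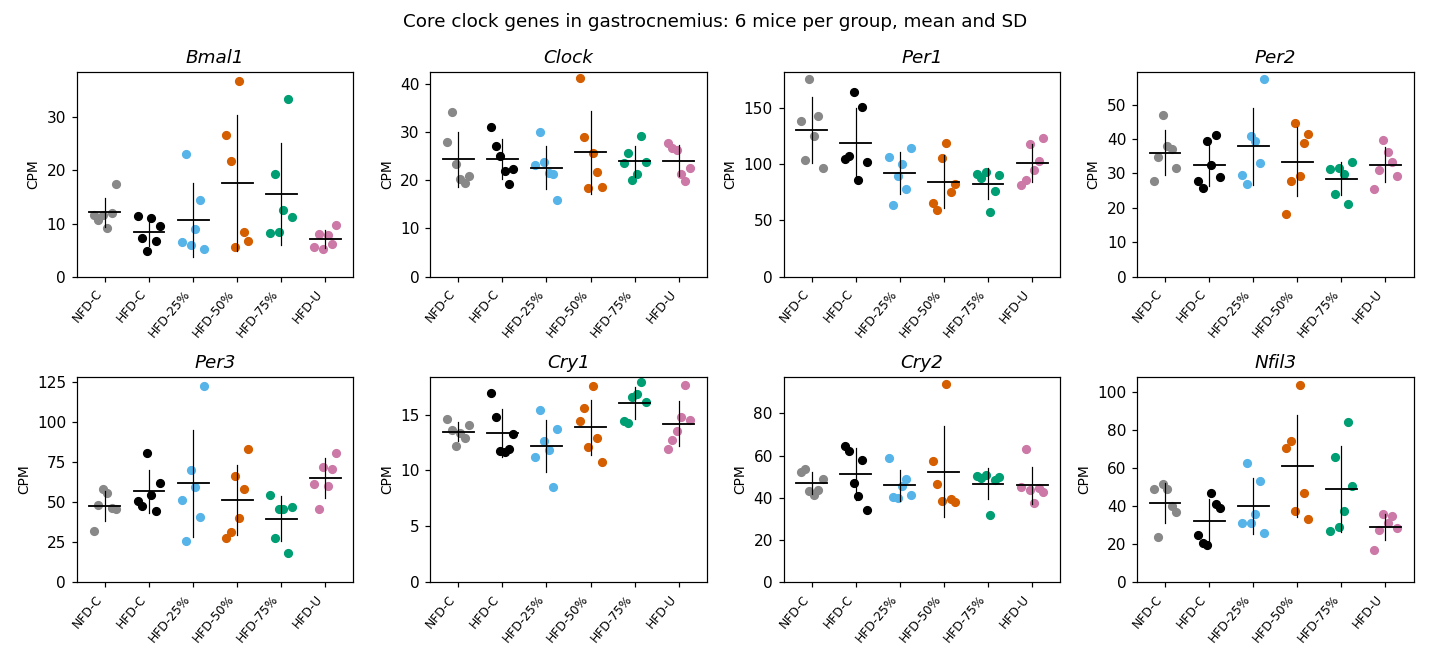
Level of the 8 tested members (CPM, linear axes from 0) in the 6 groups; each point is a mouse, the horizontal line is the group mean and the vertical line 1 SD on either side (n = 6). The highest Bmal1 and Nfil3 levels are in HFD-50% mouse 4, with 36.9 and 104 CPM, and the groups overlap for every gene.

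Bmal1, the activator whose own transcription swings most in a running clock (GRCm39 chr7:112777820-112913333, + strand), had its highest group mean in HFD-50% and its lowest in HFD-U. In HFD-C the lowest, median and highest mouse had 4.87, 8.32 and 11.4 CPM, with a mean of 8.44 ± 2.62 (SD, n = 6). In HFD-50% they had 5.60, 15.0 and 36.9 CPM (mean 17.7 ± 12.8), and in HFD-75% 8.21, 11.9 and 33.4 CPM (mean 15.5 ± 9.64). In each of these groups 3 of 6 mice stood above every HFD-C mouse and the rest lay within its range. HFD-25% mice had 5.25, 7.73 and 23.1 CPM (mean 10.7 ± 6.94), HFD-U mice 5.11, 6.96 and 9.71 CPM (mean 7.05 ± 1.75) and NFD-C mice 9.24, 11.6 and 17.5 CPM (mean 12.1 ± 2.82). The coefficient of variation was 62.2 to 72.4% in the restricted runners and 23.3 to 31.0% in the sedentary groups and HFD-U, a description that was not tested. Against HFD-C the log2 fold change of Bmal1 was 1.07 ± 0.41 (SE) in HFD-50% (edgeR, adjusted p = 0.370) and 0.89 ± 0.33 in HFD-75% (adjusted p = 0.744), neither of which passed. It was 0.34 ± 0.34 in HFD-25%, -0.26 ± 0.22 in HFD-U and 0.53 ± 0.21 in NFD-C (edgeR, adjusted p of 0.920 or above).

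Clock (GRCm39 chr5:76357715-76452675, - strand), the partner of BMAL1, had nearly the same mean in every group. Its means ran from 22.6 ± 4.55 CPM in HFD-25% to 25.8 ± 8.61 CPM in HFD-50% (SD, n = 6). The lowest mouse had 15.9 CPM, in HFD-25%, and the highest 41.2 CPM, in HFD-50%. Log2 fold changes against HFD-C lay between -0.11 and 0.08, with 95% intervals that reached from -0.40 to 0.45. Npas2 (GRCm39 chr1:39233013-39402321, + strand), which can stand in for CLOCK, was near its detection limit, with 0 to 14 counts per library. It had no count in 8 of 36 libraries, and its means ran from 0.155 CPM in HFD-C to 0.398 CPM in HFD-50%, with ranges that overlapped in every pair of groups.

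Per1 (GRCm39 chr11:68985934-69000791, + strand) encodes a repressor whose mRNA also answers quickly to hormones and activity. Its group mean was lower in all 4 running groups than in both sedentary groups. HFD-C mice had 85.9, 106 and 164 CPM (lowest, median, highest; mean 119 ± 31.1, SD, n = 6) and NFD-C mice 96.4, 132 and 176 CPM (mean 131 ± 29.2). HFD-25% mice had 64.0, 94.6 and 115 CPM (mean 92.1 ± 18.8), and HFD-50% mice 58.9, 79.1 and 119 CPM (mean 84.5 ± 23.5). HFD-75% mice had 57.2, 89.0 and 92.8 CPM (mean 82.6 ± 13.7), and HFD-U mice 81.1, 98.7 and 123 CPM (mean 101 ± 16.9). HFD-50% had 4 mice below every HFD-C mouse, HFD-75% and HFD-25% had 2 each, and HFD-U had 1, so every running group overlapped HFD-C. The log2 fold change against HFD-C was -0.37 ± 0.18 (SE) at 25% of the distance, -0.49 ± 0.21 at 50%, -0.53 ± 0.17 at 75% and -0.24 ± 0.17 in HFD-U. The edgeR adjusted p was 0.718, 0.407, 0.582 and 0.987 in that order. These 4 values share the same 6 HFD-C mice and are not independent of each other. Over all 6 groups Per1 had the smallest adjusted p of the members (edgeR, 0.0931), which did not pass. It passed there in DESeq2 (adjusted p = 0.0202) and in edgeR when mouse number entered the fit as a block (adjusted p = 0.0301). Over the 6 alternatives run for that test, in edgeR or DESeq2, its adjusted p ran from 0.0202 to 0.581. A covariate for the rRNA-linked share was among them, and every runner was in the low-share set.

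Per2 (GRCm39 chr1:91343699-91387072, - strand), a repressor and the chief scaffold of the PER-CRY complex, showed no group that stood apart. Its means lay between 28.5 ± 4.83 CPM in HFD-75% and 37.9 ± 11.1 CPM in HFD-25% (SD, n = 6), and the mice between 18.2 and 57.6 CPM. The difference between these extreme groups was 0.41 ± 0.17 (SE) on the log2 scale (edgeR, adjusted p = 0.999). In HFD-U the log2 fold change against HFD-C was 0.00, with a 95% interval from -0.28 to 0.28. Per3 (GRCm39 chr4:151081475-151129167, - strand), the third family member, varied far more between mice. HFD-C mice had 44.2, 52.6 and 81.0 CPM (lowest, median, highest), HFD-75% mice 17.8, 45.7 and 54.2 CPM and HFD-U mice 45.4, 66.2 and 80.9 CPM. HFD-25% mice had 25.6, 55.1 and 123 CPM, HFD-50% mice 27.2, 49.3 and 82.9 CPM and NFD-C mice 31.6, 47.3 and 58.0 CPM. The 2 HFD-75% mice below all of HFD-C, mice 2 and 5, were the 2 of that group with the most Bmal1. Per3 in HFD-75% differed from HFD-C by -0.51 ± 0.23 (SE) on the log2 scale (edgeR, adjusted p = 0.892) and from HFD-U by -0.71 ± 0.22 (edgeR, adjusted p = 0.558).

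Cry1 (GRCm39 chr10:84967564-85020918, - strand), the strongest repressor of the BMAL1-CLOCK pair, was the steadiest member. HFD-75% mice had 14.2, 16.4 and 17.9 CPM (lowest, median, highest; SD 1.43, n = 6), against 11.6, 12.6 and 16.9 CPM in HFD-C (mean 13.4 ± 2.13). HFD-25% had 8.54, 12.2 and 15.4 CPM (mean 12.2 ± 2.34), and 5 of its 6 mice lay below every HFD-75% mouse. The means of the other groups were 13.5 ± 0.841 CPM in NFD-C, 13.9 ± 2.47 in HFD-50% and 14.2 ± 2.02 in HFD-U. HFD-75% differed from HFD-C by 0.27 ± 0.12 (SE) on the log2 scale (edgeR, adjusted p = 0.886). HFD-25% differed from HFD-75% by -0.39 ± 0.13 (edgeR, adjusted p = 0.999). Cry2 (GRCm39 chr2:92233991-92264426, - strand), its relative, had group means between 45.8 ± 7.30 CPM in HFD-25% and 52.3 ± 21.8 CPM in HFD-50% (SD, n = 6). Its log2 fold changes against HFD-C lay between -0.16 and 0.04, with 95% intervals that reached from -0.47 to 0.50. In HFD-75% 5 mice had 48.4 to 50.5 CPM and mouse 4 had 31.9 CPM.

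Nfil3 (GRCm39 chr13:53121245-53136914, - strand), the repressor at D-boxes, followed the order of Bmal1 over the groups. HFD-C mice had 19.3, 31.8 and 47.0 CPM (lowest, median, highest; mean 31.9 ± 11.8, SD, n = 6). HFD-50% mice had 33.3, 58.8 and 104 CPM (mean 61.1 ± 26.9), and HFD-75% mice 26.9, 43.8 and 84.3 CPM (mean 48.9 ± 22.6). HFD-U mice had 16.8, 29.8 and 35.9 CPM (mean 29.0 ± 6.84), and 5 of 6 HFD-50% mice were above all of them. The means were 40.0 ± 14.7 CPM in HFD-25% and 41.7 ± 10.5 CPM in NFD-C. The log2 fold change of HFD-50% was 0.94 ± 0.29 (SE) against HFD-C (edgeR, adjusted p = 0.256) and 1.08 ± 0.26 against HFD-U (edgeR, adjusted p = 0.202). DESeq2 gave the latter an adjusted p of 0.0156, the only member it called between a pair of groups. Against HFD-C, HFD-75% differed by 0.63 ± 0.29 (edgeR, adjusted p = 0.911), HFD-25% by 0.33 ± 0.26, HFD-U by -0.13 ± 0.23 and NFD-C by 0.39 ± 0.24.

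Counted together against HFD-C, none of the 8 tested members passed the adjusted threshold (edgeR, Benjamini-Hochberg over all genes), where 0.0082% of all genes did in HFD-25% and 0% in the other 4 comparisons. With an unadjusted p up to 0.05, the count was 0 of 8 for HFD-25% (6.98% of all genes), 3 for HFD-50% (10.7%), 5 for HFD-75% (5.47%), 0 for HFD-U (5.46%) and 1, Bmal1, for NFD-C (4.12%). The 3 in HFD-50% were Bmal1 and Nfil3, which were higher (5.8% of all genes were), and Per1, which was lower (4.89%). The 5 in HFD-75% were Bmal1, Nfil3 and Cry1, which were higher (2.31%), and Per1 and Per3, which were lower (3.16%). The median log2 fold change of the 8 members was 0.05 in HFD-50% and -0.07 in HFD-75%, beside 0.01 and 0.00 over all genes tested. No member had groups that did not overlap in any of the 11 comparisons between pairs of groups, which 0.0914 to 0.878% of all genes had.

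These counts at an unadjusted p depended on single mice and on the rRNA-linked sets. The share of all genes at that p in each reduced set is not given here. A change in the members is therefore not set against a change over all genes. In HFD-75% the count was 1 (Per1) without HFD-75% mouse 5, 2 without HFD-C mouse 3, and 3 without HFD-C mouse 4 or 6 or HFD-75% mouse 2 or 6. Within the libraries of low rRNA-linked share, which leave only 2 HFD-C mice, it was 2 in HFD-75% (Per1 and Cry1) and 0 in HFD-25%, HFD-50% and HFD-U. In that set Bmal1 differed by 1.15 in HFD-50% (edgeR, adjusted p = 0.614) and by 0.96 in HFD-75% (edgeR, adjusted p = 0.576) on the log2 scale. Per1 differed by -0.58 and -0.62, and Nfil3 by 0.62 and 0.30, in HFD-50% and HFD-75%. Per3 differed by -0.42 and Cry1 by 0.35 in HFD-75%. Without HFD-50% mouse 4 the Bmal1 value in HFD-50% was 0.71, and without HFD-75% mouse 5 it was 0.51 in HFD-75%. For NFD-C the high-share set alone gave Bmal1 0.49 (edgeR, adjusted p = 0.952) and a count of 1, which was Nfil3. In NFD-C the count over both sets was 0 without NFD-C mouse 6 or HFD-C mouse 3 or 5, and 2 without NFD-C mouse 2 or HFD-C mouse 4. In HFD-25% Per1 reached an unadjusted p of 0.05 without HFD-C mouse 1, 4 or 6 or HFD-25% mouse 1 or 6, and in HFD-U Per3 did without HFD-C mouse 3.

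**Figure D2:**
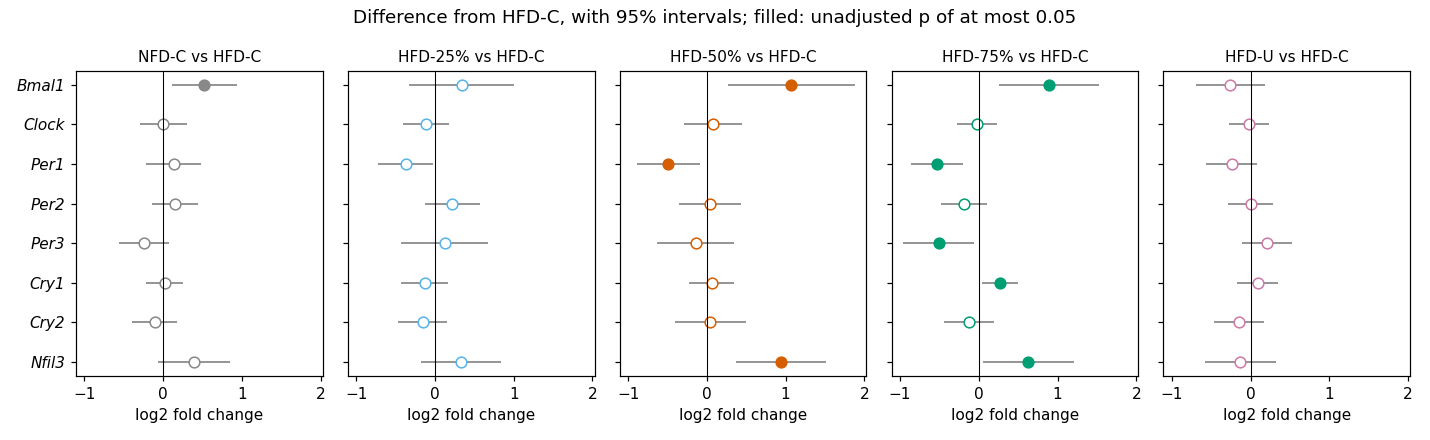
Log2 fold change of each member against HFD-C in 5 panels, 1 for each other group, with 95% intervals as bars; filled points have an unadjusted p of at most 0.05 in edgeR and none passed the adjusted threshold. Filled points number 1 in NFD-C, 0 for HFD-25%, 3 for HFD-50%, 5 for HFD-75% and 0 in HFD-U, and all panels share the same 6 HFD-C mice.

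Comparisons among the runners used only libraries of the low-share set. Again no member passed the adjusted threshold (edgeR), which 0.00844% of all genes did for HFD-50% against HFD-U, and 0% for the other 5 pairs. With an unadjusted p up to 0.05, the count of members was 2 of 8 for HFD-50% against HFD-U (12.4% of all genes), 4 for HFD-75% against HFD-U (5.57%) and 0 for HFD-25% against HFD-U (5.1%). It was 1 for HFD-50% against HFD-25% (2.69%), 0 for HFD-50% against HFD-75% (5.37%) and 2 for HFD-25% against HFD-75% (3.12%). Bmal1 was higher than in HFD-U by 1.33 ± 0.41 (SE) in HFD-50% and by 1.15 ± 0.32 in HFD-75% on the log2 scale (edgeR, adjusted p = 0.262 and 0.506). HFD-25% and HFD-U differed by 0.60 ± 0.33 in Bmal1 and 0.47 ± 0.22 in Nfil3 (edgeR, adjusted p = 0.927 for both). A joint test of a linear and a quadratic term of distance over the 24 runners reached an unadjusted p of at most 0.05 for Nfil3, Bmal1 and Cry1, 3 of 8 members against 8.49% of all genes. Their edgeR adjusted p was 0.294, 0.419 and 0.534, and 0.0419% of all genes passed. Over the 6 groups Per1, Nfil3 and Bmal1 did so (12.2% of all genes), and in edgeR no member passed where 1.45% of all genes did. In DESeq2 Per1 and Nfil3 passed over the 6 groups (adjusted p = 0.0202 and 0.0465). The shares of all genes above are those of edgeR and do not apply to DESeq2.

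The genes around the core loop were counted from lists written with earlier results of these data known. Of 12 regulators and outputs (among them Nr1d1, Nr1d2, Bhlhe40, Bhlhe41, Dbp, Tef, Hlf and Ciart) 11 were tested. None passed the adjusted threshold between any 2 groups in edgeR. With an unadjusted p up to 0.05 the count against HFD-C was 1 for HFD-25% (6.98% of all genes), 4 for HFD-50% (10.7%) and 5 for HFD-75% (5.47%). It was 2 for HFD-U (5.46%) and 1 for NFD-C (4.12%). Against HFD-U it was 10 for HFD-50% (12.4% of all genes), of which 9 were lower (5.34% of all genes were). It was 5 for HFD-25% (5.1%), all lower (1.81%), and 9 for HFD-75% (5.57%), of which 8 were lower (2.88%). Distance among runners gave 9 of 11 (8.49% of all genes). Bhlhe40 and Nr1d1 were past the adjusted threshold there (edgeR, adjusted p = 0.00572 and 0.0119), as were 0.0419% of all genes. The median log2 fold change of the 11 tested regulators and outputs against HFD-C was -0.44 in HFD-50% and -0.34 in HFD-75%, beside 0.01 and 0.00 over all genes. Over 6 groups 8 of 11 reached an unadjusted p of 0.05 (12.2% of all genes) and 3 passed (Bhlhe40, Nr1d1 and Bhlhe41), where 1.45% of all genes did. Of 11 kinases and ubiquitin ligases that act on PER and CRY proteins 10 were tested, and 0 or 1 reached an unadjusted p of 0.05 in each of these tests, with none passing.

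Nr1d1, which encodes the repressor REV-ERB alpha at the Bmal1 ROREs, had means of 24.8 ± 8.45 CPM in HFD-50% and 25.7 ± 8.27 CPM in HFD-75%, against 45.2 ± 15.4 in HFD-C and 73.2 ± 30.0 in HFD-U (SD, n = 6). HFD-50% differed from HFD-U by -1.56 ± 0.28 (SE) on the log2 scale (edgeR, adjusted p = 0.0731). Nr1d2, its relative, differed far less, by -0.24 ± 0.11 (edgeR, adjusted p = 0.401). Dbp, the D-box activator, had 18.0, 32.8 and 8.94 CPM in HFD-50% mice 1, 2 and 4 and 58.3 to 87.3 CPM in the other 3, where HFD-U mice had 92.3 to 130 CPM. Bhlhe40, the E-box repressor DEC1, differed between HFD-50% and HFD-C by -0.89 ± 0.17 (edgeR, adjusted p = 0.108). Ciart, a repressor of the BMAL1-CLOCK pair, differed between HFD-75% and HFD-U by -1.90 ± 0.28 (edgeR, adjusted p = 0.0644).

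Within groups some pairs of members rose and fell together and others went in opposite directions. The log2 level of each mouse was taken as its deviation from the mean of its group, and Pearson's r and Spearman's rho were computed for the 28 pairs of tested members over 36 mice, with p from 100000 permutations adjusted over the 28 pairs. 16 pairs passed by r, of which 7 were positive and 9 negative, and 16 by rho. Bmal1 was tied to Nfil3 (r = 0.75, rho = 0.71) and, with opposite sign, to Per3 (r = -0.78, rho = -0.75) and Per2 (r = -0.71, rho = -0.68). Per2 and Per3 rose and fell together (r = 0.80, rho = 0.78). The permutation p of these 4 pairs was 1e-05 for r and for rho, the smallest that the permutations can give, and the adjusted p for r was 5.6e-05. Without the 2 mice farthest from the median of the first gene, r was 0.69, -0.78, -0.71 and 0.74 in that order. In the 26 mice of the low-share set it was 0.87, -0.82, -0.76 and 0.80. In the 10 of the high-share set, which hold no runner, it was 0.37, -0.48, -0.42 and 0.91, and 2 of 28 pairs passed there, none of them with Bmal1. The permutations treat the mice as exchangeable, although mouse number was itself related to Clock, Per2 and Per3 (given below). With the mean of each mouse number removed as well, a block chosen after seeing the data, these r were 0.77, -0.83, -0.77 and 0.80 (permutation, adjusted p = 4.67e-05 for each). By r 11 of 28 pairs then passed, of which 8 were among the 16.

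Clock also went with Bmal1 (r = 0.54, rho = 0.46, permutation p = 0.00070 and 0.00535, adjusted p = 0.00245 for r). It went against Per2 (r = -0.75, rho = -0.67) and Per3 (r = -0.66, rho = -0.58), although its range over the mice was only 2.58-fold. Per1 went with Per2 (r = 0.52, rho = 0.55) and Per3 (r = 0.44, rho = 0.44) and was less tied to Bmal1 (r = -0.38, rho = -0.45). With the mouse number removed none of these 3 passed (r = 0.37, 0.25 and -0.17, permutation, adjusted p = 0.0562, 0.212 and 0.367). Nfil3 went against Per3 (r = -0.64, rho = -0.59). Its r with Per2, -0.35, did not pass (permutation, adjusted p = 0.0574). With the mouse number removed that r was -0.54 and passed (permutation, adjusted p = 0.00160). The r of Bmal1 with Cry1, 0.42, was 0.24 without the 2 mice farthest from the median of Bmal1, so r rested on those mice, while rho was 0.38 over all 36 (permutation, adjusted p = 0.0410). All 28 pairs had the same sign in the low-share set as over all 36 mice, of which that set makes up 26. In the 10 mice of the high-share set some pairs had the other sign, among them Bmal1 with Clock (r = -0.08).

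Dbp had the strongest tie to Bmal1 of the 5 outputs examined (r = -0.83, rho = -0.78, permutation p = 1e-05, adjusted over 40 pairs 0.0001), and Nfil3 went against it as well (r = -0.75, rho = -0.71). The mice with the highest Bmal1 show the pattern in the values themselves. HFD-50% mouse 4 had 36.9 CPM of Bmal1, 104 of Nfil3 and 8.94 of Dbp. HFD-75% mouse 5 had 33.4 CPM of Bmal1, 84.3 of Nfil3, 17.8 of Per3 and 18.3 of Dbp. HFD-25% mouse 2 had 23.1 CPM of Bmal1, 62.8 of Nfil3 and 25.6 of Per3, the lowest Per3 of its group. At the other end HFD-25% mouse 6 had 5.25 CPM of Bmal1, 26.0 of Nfil3, 57.6 of Per2 and 123 of Per3, the lowest or highest mouse of its group in each. HFD-C mouse 4, with 11.1 CPM of Bmal1, had the most Nfil3 (47.0) and the least Dbp (28.1) of its group, but its 54.3 CPM of Per3 lay near the group mean. NFD-C mouse 6 had the most Bmal1 of its group (17.5 CPM) with only 36.7 of Nfil3.

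**Figure D3:**
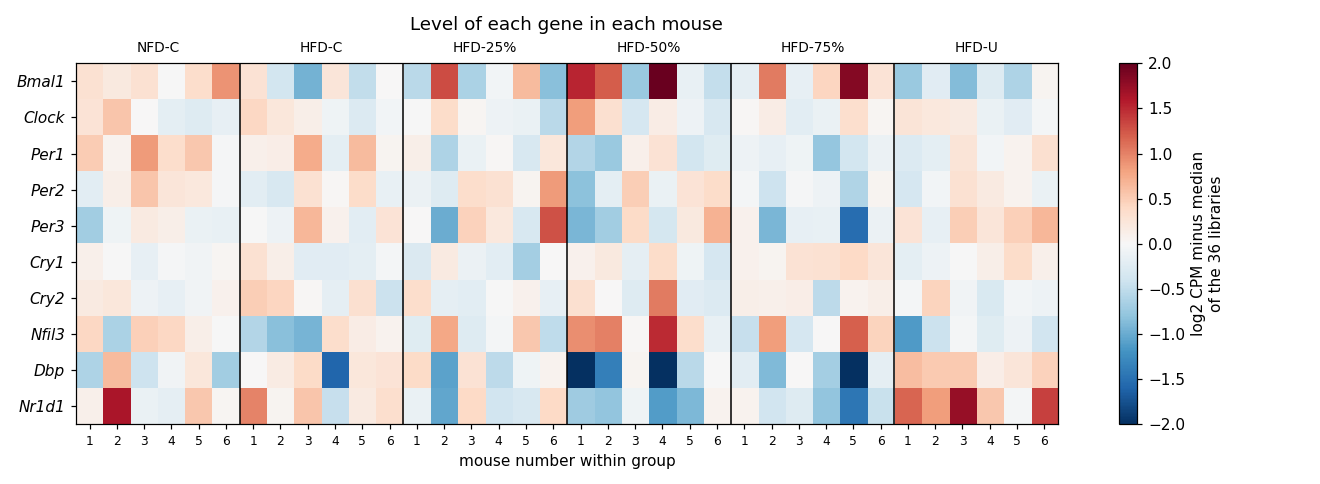
Level of the 8 tested members and of Dbp and Nr1d1 in each of 36 mice, as log2 CPM minus the median of the 36 (colours end at -2 and 2). HFD-50% mice 1, 2 and 4, HFD-75% mice 2 and 5 and HFD-25% mouse 2 are high in Bmal1 and Nfil3 and low in Per3, Dbp and Nr1d1.

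**Figure D4:**
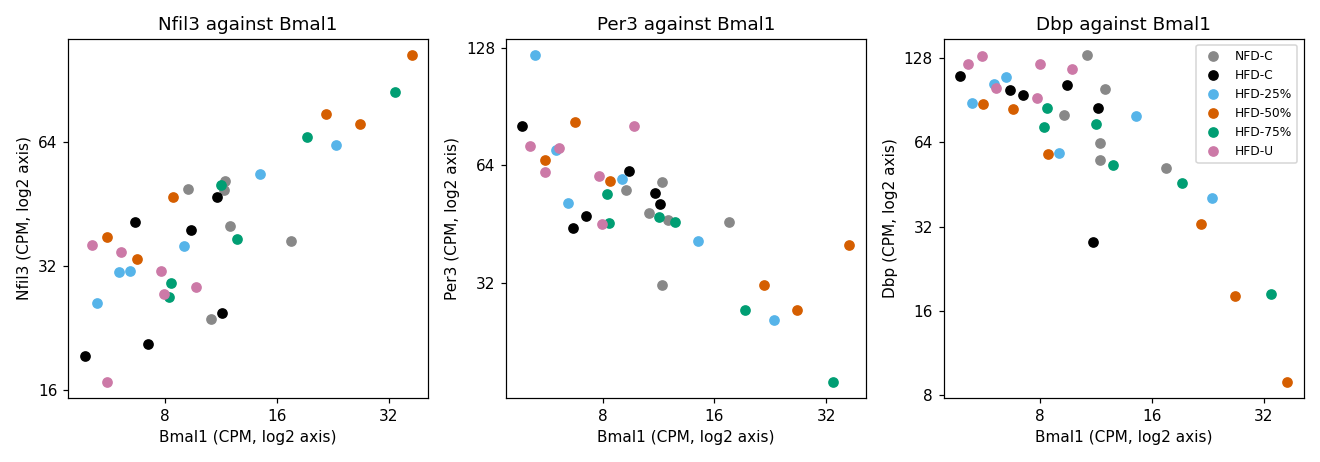
Nfil3, Per3 and Dbp against Bmal1 in the 36 mice (CPM, log2 axes), coloured by group. Nfil3 is higher, and Per3 and Dbp lower, in mice with more Bmal1 (r of deviations from group means 0.75, -0.78 and -0.83), and the 6 mice with the most Bmal1 are restricted runners.

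Other measures moved with the same genes across mice, and their part in the correlations was not tested. The summed endothelial markers correlated with Per2 (r = 0.60, rho = 0.59), Per3 (r = 0.57, rho = 0.54), Bmal1 (r = -0.47, rho = -0.45), Clock (r = -0.51, rho = -0.51) and Cry2 (r = -0.47, rho = -0.46). The adipocyte marker sum, which is mostly Fabp4, correlated with Clock (r = -0.63, rho = -0.65), Cry2 (r = -0.50, rho = -0.59), Per2 (r = 0.48, rho = 0.48) and Per3 (r = 0.47, rho = 0.48). Red blood cell markers correlated with Clock (r = -0.57, rho = -0.58). All of these passed a permutation test adjusted over 72 pairs (adjusted p from 0.00432 to 0.0272). Muscle fibre markers with Per3 (r = -0.46, rho = -0.35) and red blood cell markers with Per2 (r = 0.43, rho = 0.42) passed by r (permutation, adjusted p = 0.0287 and 0.0453). By rho neither did (permutation, adjusted p = 0.140 and 0.0555). Clock also went with the depth of the library (r = 0.44, rho = 0.52, permutation, adjusted p = 0.0431). By r the rRNA-linked share reached an unadjusted permutation p of 0.05 with no member (Cry1, r = 0.32, permutation p = 0.0611). By rho it did so with Cry1 (rho = 0.33, permutation p = 0.0483, adjusted p = 0.166). All these values are deviations from group means, so a difference in that share between groups cannot show in them.

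Over the 36 libraries, with group differences left in, Dbp was the gene least like Bmal1 of 12052 tested (r of log2 CPM = -0.84) and Per3 the next (r = -0.81), followed by Hdac9 (-0.74), Ciart (-0.74) and Smtn (-0.71). Of the genes most like Bmal1, the leading 4 were Trim63 (0.84), Lrrc30 (0.84), Fbxo32 (0.82) and Nfil3 (0.80). Trim63 and Fbxo32 encode the muscle ubiquitin ligases MuRF1 and atrogin-1. Per3 was the gene most like Per2 of all tested (0.74), followed by Kif13b (0.73), LOC118567721 (0.72), a feature with no symbol (0.72) and Ints6l (0.71). The least like Per2 were Eif3a (-0.76), Psmd1 (-0.75), Lonp2 (-0.72), Napepld (-0.72) and Bcor (-0.72). These genes were picked as the extremes of a ranking, so their r is a description.

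Mice carried the numbers 1 to 6 in every group, and what a number stands for is not given in the sources used here. With the group in the model, the number was past the adjusted threshold for Clock, Per3 and Per2 (edgeR, adjusted p = 0.00467, 0.00842 and 0.0124), 3 of 8 members, and for 31.3% of all genes, so the members' share is near the background. At an unadjusted threshold the same count of 3 of 8 members was reached, against 43.5% of all genes in edgeR. Clock was above the group mean in 6 of 6 mice numbered 2 and 5 of 6 numbered 1, and in 1 of 6 mice for each of the numbers 4, 5 and 6. Mice numbered 1 and 2 had mean levels of 29.1 and 28.7 CPM of Clock, and the other numbers 20.6 to 22.8 CPM. Per2 was above the group mean in 6 of 6 mice numbered 3 and in 0 of 6 numbered 2, with mean levels of 40.6 and 28.4 CPM. Per3 was above it in 6 of 6 mice numbered 3, with a mean of 65.5 CPM. Bmal1 was above it in 0 of 6 mice numbered 3 and had a mean level of 6.92 CPM in them, but the number did not pass for Bmal1 (edgeR, adjusted p = 0.201). Without the mice numbered 1 only Per3 passed (edgeR, adjusted p = 0.0258), where 4.72% of all genes did. In the fit over all 36 mice, where 31.3% of all genes passed, 2 of 11 regulators and outputs did (Rora and Usp2). Of the kinases and ligases 4 of 10 passed in that fit (Gsk3b, Btrc, Fbxw11 and Prkaa2).

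**Figure D5:**
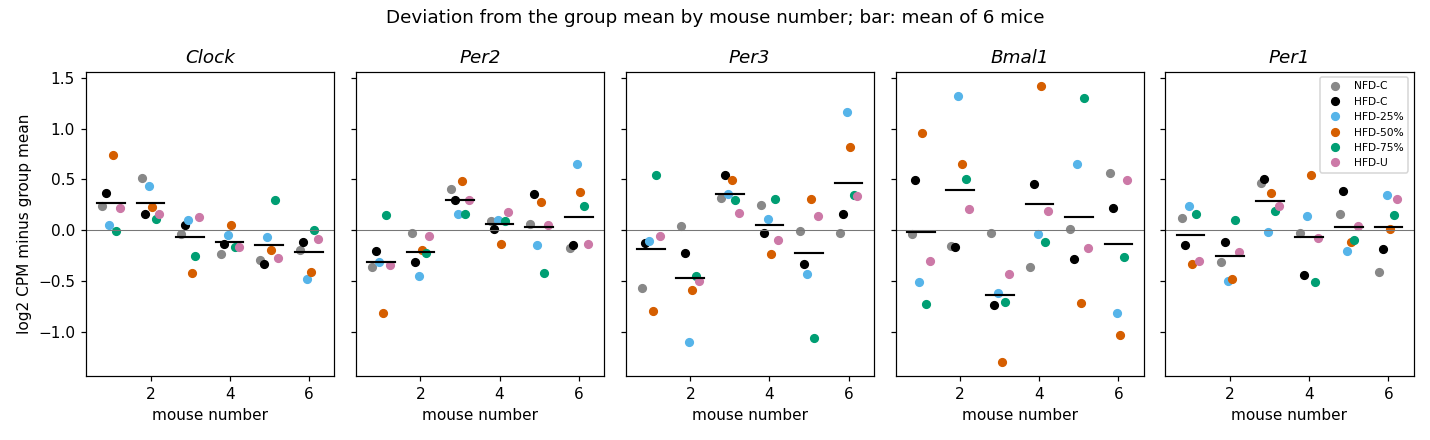
Deviation of log2 CPM from the group mean for 5 members by mouse number, with 1 point per mouse coloured by group and a bar at the mean of the 6 mice of that number. All 6 mice numbered 3 lie above their group mean for Per2 and Per3 and below it for Bmal1.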

How the data were processed

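Poly(A)-selected libraries were sequenced as paired ends. Per the labels, the submitters' processing notes name HISAT2 2.0.5, StringTie 1.3.3b, featureCounts 1.5.0-p3, DESeq2 1.20.0, edgeR 3.22.5 and the build mm10, whereas the chromosome accessions beside the counts are those of GRCm39, to which the gene coordinates belong. The deposited values are raw counts per gene and library made by the authors, without normalization. The strand setting of the counting is not given in the sources used here, so reads from overlapping antisense genes may be included. Features without a symbol (562, with 0.262% of counts) were kept.

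The tests were run in edgeR 4.0.16 under R 4.3.3 (TMM, quasi-likelihood F-test, two-sided) on features with a mean count of at least 25 in the fit, with Benjamini-Hochberg adjustment over all of them and a threshold of 0.05. Each pair of groups was fitted alone. Replicates are single mice, and pairs of libraries within a group differed by 16.2 to 218 times the sampling variance. FPKM used the gene lengths in the file. Correlations used SciPy 1.17.1 and two-sided permutation tests. The alternatives were DESeq2 1.42.0, no minimum count, RLE scaling, a block for the mouse number, 1 fit over all libraries, the rRNA-linked share as a covariate or a set, the mice numbered 2 to 6, and leaving out each mouse for the comparisons with HFD-C, HFD-50% against HFD-U and distance. The edgeR tests of HFD-50% against HFD-C, of distance and of the mouse numbers were also tried on simulated data, with outcomes not given here. The other tests were not.

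The RORE was first searched in a form 1 letter longer and was shortened, for reasons of how motifs could be written here, after its matches had been seen. The shorter form is held by a larger share of windows and added the match in the Nfil3 window.

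The members, the lists of regulators and outputs, of kinases and ligases and of cell type markers, and the tests were chosen with earlier results of these data known. All members were named, with 5 outputs and the 5 most and 5 least similar genes of Bmal1 and Per2. Some items that these rules select are not reported here. Same-numbered mice deviated together in all 6 pairs (r above 0.1, from 0.12 to 0.50) only for HFD-U and HFD-C, where the block changed no call.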

Additional observations from a re-analysis of the deposited data

Results flagged for a closer look

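In 54 groups of 6 mice, 4 values stood apart from the other 5 mice of their group by Dixon's test (critical ratio 0.625), where chance gives about 1 in 20 groups. Bmal1 was 17.5 CPM in NFD-C mouse 6, against 9.24 to 12.0 CPM in the other 5. Cry2 accounted for the other 3. It was 94.1 CPM in HFD-50% mouse 4 (others 38.1 to 57.5), 31.9 CPM in HFD-75% mouse 4 (others 48.4 to 50.5) and 62.9 CPM in HFD-U mouse 2 (others 37.2 to 44.8).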

How the results depend on the processing

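The count of members past the adjusted threshold stayed at 0 in the comparisons with HFD-C under each alternative run, the block by mouse number included. It became 1 (Nfil3) for HFD-50% against HFD-U in DESeq2. Over the 6 groups it became 2 (Per1 and Nfil3) in DESeq2 and 1 (Per1) with the mouse number as a block. The share of all genes called in those alternatives is not given here. For the mouse numbers the count of members became 1 in place of 3 without the mice numbered 1. Of the 28 correlations, 2 in place of 16 passed in the high-share libraries alone. With the mouse number removed as a block, chosen after seeing the data, 11 passed and 26 of 28 kept their sign. The cause was not tested, though those libraries number only 10. Leaving out each mouse gave 0 to 0 members in the comparisons with HFD-C, in HFD-50% against HFD-U and over distance. The block changed no other call of the edgeR tests. Among the fold changes with an unadjusted p of at most 0.05 in the main edgeR fit, none reversed in any alternative. The signs of the other fold changes were not compared.

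At an unadjusted p, with the cause not tested, the count in HFD-25% against HFD-C was 1 in place of 0 in DESeq2, with no minimum count, without the mice numbered 1 and in 1 fit over all libraries. In HFD-50% it was 1 in place of 3, and in HFD-75% 3 in place of 5, with a covariate for the rRNA-linked share. For NFD-C it was 2 with the block or that covariate and 0 in 1 fit, for HFD-25% against HFD-U 1 in DESeq2 or with the block and 2 with no minimum count, and for HFD-25% against HFD-75% 4 with the block. Without the mice numbered 1 it was 0 in place of 1 for HFD-50% against HFD-25% and 1 in place of 0 for HFD-50% against HFD-75%. For the mouse numbers it was 6 in place of 3 with no minimum count. The share of all genes at an unadjusted p in each of these alternatives is not given here, so these counts have no background beside them. With 6 mice per group the 95% intervals of Bmal1 and Nfil3 against HFD-C span more than 1 log2 unit in the 3 restricted groups, and Npas2 is too low to compare at this depth.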
